A study of Ursus arctos with 12 samples.

Results

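The transcripts described here are those of mitochondrial respiratory complex I and of the factors that assemble it, taken from the rows of the brown bear muscle count table whose symbol starts with NDUF and that held 30 or more reads over the 12 libraries. Of the 30249 genes in the table, 17290 passed the same minimum, and 46 NDUF genes are described. By symbol, 38 of them were subunits (NDUFA, NDUFB, NDUFC, NDUFS or NDUFV with a number, and NDUFAB1) and 8 were assembly factors (NDUFAF1 to NDUFAF8). The muscle was the vastus lateralis of 6 free-ranging brown bears (Ursus arctos), 2 to 3 years old, each biopsied under anaesthesia in winter during hibernation and again in summer during the active period of the same year. The 2 groups therefore hold the same animals, 6 summer and 6 winter libraries, with no treatment other than the season, in which fasting, inactivity and a lower body temperature come together and cannot be told apart.

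Complex I is the entry point of NADH electrons into the respiratory chain. Its L-shaped body has a peripheral arm in the matrix, where NADH is oxidised by a flavin and electrons run along iron-sulfur clusters to ubiquinone, and a membrane arm that pumps protons. The catalytic core is made of a few conserved subunits, some of them encoded by mitochondrial DNA, and is wrapped in many accessory subunits, which stabilise the complex. Assembly factors build it in modules and are absent from the finished enzyme. Skeletal muscle fibres, above all the oxidative ones, are rich in it. The mitochondrially encoded ND genes were not analysed here, so every value below is for a nuclear transcript.

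Libraries held 16742406 to 32140160 reads on genes. Levels are CPM, the reads of a gene scaled to a common library size with TMM factors. The seasons were tested against each other in edgeR (quasi-likelihood F-test, bear as a block), p-values were adjusted by the Benjamini-Hochberg method over all 17290 genes, and a gene was called at an adjusted p below 0.05. The change is the fitted log2 of winter over summer, with its standard error (SE). The winter library of bear 1509 stood apart from the other 11 on the second principal component of all genes, at 98.6 against −29.4 to 8.16, so the counts of called subunits and NDUFAF genes are also given without that bear. Muscle markers were abundant, at a summed 112389 to 198692 CPM in summer and 126136 to 167915 in winter over 8 genes.

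Most of the nuclear transcripts of complex I described here were lower in winter. Of the 38 subunits, 22 fell and 0 rose (0 higher by raw p below 0.05, 0 by DESeq2 or limma voom), which is 57.9% of them lower against 21.2% of all genes tested, and 0 higher against 19.6%. Their median log2 change was −0.46, beside −0.01 over all genes. Of the 8 assembly factors 3 fell and 0 rose (0 higher by raw p below 0.05, 0 by DESeq2), with a median of −0.23, which was −0.17 without bear 1316 and −0.37 without bear 1511. The 25 genes that fell stood in winter at 0.451 to 0.787 times their summer level, from NDUFA10 to NDUFA8. The 21 others ranged from −0.74 for NDUFA4L2 to 0.17 for NDUFAF6, and 19 of those were below 0. Without bear 1509, 20 subunits and 3 assembly factors fell, and without any other single bear 17 to 23 subunits and 3 assembly factors did.

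**Figure D1:**
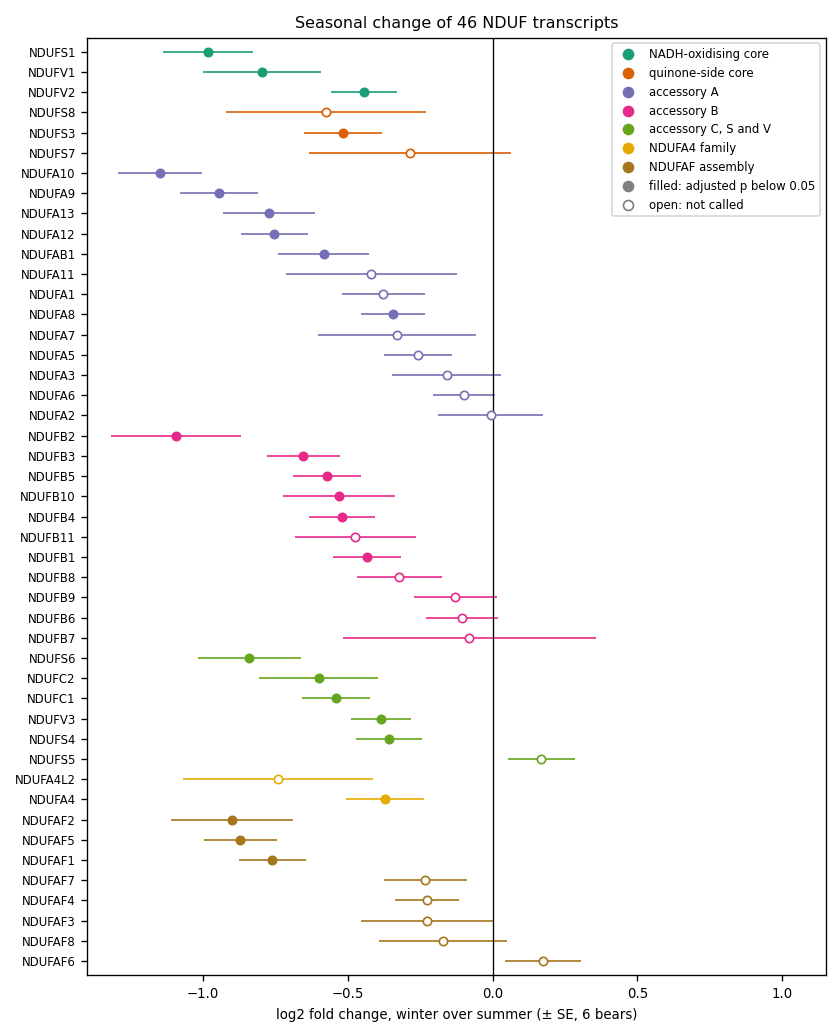
Fitted log2 fold change of winter over summer (x axis) for each of the 46 NDUF transcripts (y axis), with bars of 1 standard error from 6 bears, coloured by role. Filled points, 25 in all, passed an adjusted p below 0.05 and every one of them lies left of 0; 2 open points, NDUFS5 and NDUFAF6, lie right of it.

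The sum of these subunit transcripts ran from 6209.8 to 9193 CPM in summer and from 4676 to 7238 in winter. The groups overlapped only through the summer library of bear 1317, the lowest in summer, and the winter library of bear 1511, the highest in winter. Within a bear the winter sum was 54.7% to 89.4% of the summer sum, lower in 6 of 6. These sums include NDUFA4, which is taken up apart below. With NDUFA4 left out they ran from 5258 to 7977 CPM in summer and from 4015.5 to 6267 in winter. In biopsies of whole tissue, fewer oxidative fibres and less RNA of these genes per fibre cannot be told apart.

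The 3 core subunits of the NADH-oxidising end of the peripheral arm all fell. NDUFV1 carries the flavin and the NADH site, NDUFV2 an iron-sulfur cluster beside it, and NDUFS1, the largest subunit of this arm, several more clusters. In bears 1305, 1316, 1317, 1509, 1511 and 1512, the order used for every series of values below, NDUFS1 stood at 833, 634, 1002, 799, 814 and 1001 CPM in summer and 417, 309, 310.2, 588, 478 and 508 CPM in winter. Every winter value lay under every summer value, and the change was the largest among the core subunits described (log2 change −0.98, SE 0.16, adjusted p = 0.000716). NDUFV2 stood at 292, 326, 272, 266, 303 and 288 CPM in summer and 204, 189.7, 188, 242, 251 and 215 CPM in winter. Again the seasons did not overlap, although the change was smaller (log2 change −0.44, SE 0.11, adjusted p = 0.00988). NDUFV1 stood at 235, 327, 188, 310.1, 294 and 165 CPM in summer and 115, 148, 150.2, 88.0, 240.4 and 143 CPM in winter. All 6 bears were lower in winter (log2 change −0.80, SE 0.20, adjusted p = 0.00996), but the seasons overlapped, because bears 1317 and 1512 were low in summer and bear 1511 was high in winter.

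Of the core subunits described nearer to ubiquinone, NDUFS3 fell, while NDUFS7 and NDUFS8 did not pass the test. NDUFS7 holds the last iron-sulfur cluster of the chain, and NDUFS8 carries further clusters. NDUFS3 stood at 416, 503, 340.1, 535, 442 and 418 CPM in summer and 281, 248, 212, 469.7, 399 and 295 CPM in winter, lower in 6 of 6 bears (log2 change −0.52, SE 0.13, adjusted p = 0.0105); with no block for the bear its adjusted p was 0.051 (range 0.000909 to 0.051 over the alternatives). The seasons overlapped through the winter libraries of bears 1509 and 1511, which stood above bear 1317 in summer. That of bear 1509 also stood above bears 1305, 1511 and 1512 in summer.

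NDUFS7 and NDUFS8 were lower in winter in some bears and higher in others, with the same bears on each side. NDUFS7 stood at 59.3, 104, 24.4, 69.9, 73.0 and 28.4 CPM in summer and 38.1, 47.2, 46.6, 16.8, 96.1 and 45.7 CPM in winter, lower in 3 of 6 bears, with differences of single bears from −2.05 to 0.93 on the log2 scale (log2 change −0.29, SE 0.35, adjusted p = 0.541). NDUFS8 stood at 147, 177, 57.7, 162, 172 and 100.1 CPM in summer and 72.4, 67.7, 76.5, 32.9, 214 and 133 CPM in winter, lower in the same 3 bears, 1305, 1316 and 1509 (log2 change −0.58, SE 0.35, adjusted p = 0.207). Both had their lowest summer levels in bears 1317 and 1512 and their lowest winter level in bear 1509. Their SEs of 0.35 compare with 0.13 for NDUFS3.

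**Figure D2:**
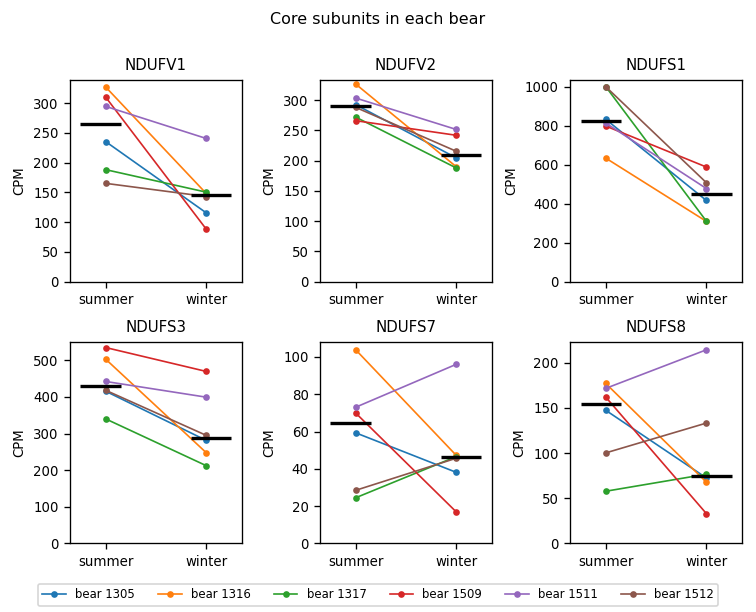
Level in CPM (y axis, from 0) of 6 nuclear core subunits in summer and winter (x axis), with a line for each of the 6 bears and a black bar at the median. All 6 lines fall for NDUFV1, NDUFV2, NDUFS1 and NDUFS3, whereas 3 of 6 rise for NDUFS7 and NDUFS8.

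Among the 13 accessory subunits of the A series, 6 fell and 0 rose (0 higher by raw p below 0.05, 0 by DESeq2). Those 6 are 46.2% of the series, where 21.2% of all genes tested fell and 19.6% rose. NDUFA10, a protein with a nucleoside kinase fold on the matrix face of the membrane arm, had the largest change of the 46 genes. It stood at 171, 199, 129, 199.9, 225 and 172 CPM in summer and 64.1, 80.4, 71.7, 59.8, 128 and 101 CPM in winter, so that the highest winter value, in bear 1511, lay just under the lowest summer value, in bear 1317 (log2 change −1.15, SE 0.15, adjusted p = 0.000197). NDUFA9, a dehydrogenase-like protein at the joint of the 2 arms, stood at 332, 382, 346, 324, 330.4 and 365 CPM in summer and 173, 159, 142, 223, 225 and 170.5 CPM in winter. The seasons were clearly apart in every bear (log2 change −0.95, SE 0.13, adjusted p = 0.000389), and the summer values of the 6 bears lay close together.

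NDUFA12 fell too, from 124 to 230.5 CPM (median 184) in summer to 73.3 to 133 CPM (median 112) in winter (log2 change −0.75, SE 0.12, adjusted p = 0.000623). NDUFA13, also known as the cell death regulator GRIM-19, went from 174 to 336 CPM (median 292) to 122 to 257 CPM (median 149) (log2 change −0.77, SE 0.16, adjusted p = 0.00315). NDUFAB1 is the mitochondrial acyl carrier protein, which also serves lipoic acid and iron-sulfur cluster synthesis. It went from 61.3 to 94.9 CPM (median 68.8) to 38.1 to 60.7 CPM (median 48.1) with no overlap (log2 change −0.58, SE 0.16, adjusted p = 0.013). NDUFA8, a disulfide-linked protein of the intermembrane side, was the weakest of the 6 at −0.34 (adjusted p = 0.0283); 5 of 6 bears were lower, and the call was lost with no block (0.0713, range 0.0121 to 0.083 over the alternatives).

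The other 7 of the A series were not called. NDUFA1, a small membrane subunit that is needed for assembly, came closest at −0.38 (adjusted p = 0.0583); 5 of 6 bears were lower, and bear 1317 was higher by 0.28 on the log2 scale. NDUFA5 stood at −0.26 (adjusted p = 0.106), and NDUFA11, a membrane subunit, at −0.42 (adjusted p = 0.279) with an SE of 0.30. NDUFA7 was at −0.33 (adjusted p = 0.356), NDUFA3 at −0.16 (adjusted p = 0.523) and NDUFA6, which binds the acyl carrier protein, at −0.10 (adjusted p = 0.478). NDUFA2, a thioredoxin-like protein of the NADH end, was at −0.01 (adjusted p = 0.979), lower in 3 of 6 bears.

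The B series forms much of the distal membrane arm. Here 6 of 11 fell and 0 rose (0 higher by raw p below 0.05, 0 by DESeq2). That is 54.5% lower, beside 21.2% lower and 19.6% higher over all genes tested. NDUFB2 showed the largest change among them, at 70.7, 126, 46.2, 89.1, 86.2 and 48.9 CPM in summer and 31.5, 27.6, 28.8, 27.9, 62.3 and 36.8 CPM in winter. All 6 bears were lower in winter (log2 change −1.09, SE 0.22, adjusted p = 0.00311). Winter values of 5 bears lay within 27.6 to 36.8 CPM, while bear 1511 stood above the summer values of bears 1317 and 1512. NDUFB3, NDUFB4 and NDUFB5 were also lower in 6 of 6 bears. NDUFB3 went from 57.4 to 83.8 CPM (median 76.7) to 36.2 to 60.5 CPM (median 48.9) (log2 change −0.65, SE 0.13, adjusted p = 0.00227). NDUFB5 (log2 change −0.57, SE 0.12, adjusted p = 0.00333) went from 162 to 226 CPM (median 178) to 92.6 to 159.7 CPM (median 130.0), with no overlap. NDUFB4 did so as well, with 167 to 265 CPM (median 199) in summer and 135 to 166 CPM (median 142) in winter (log2 change −0.52, SE 0.11, adjusted p = 0.00449).

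NDUFB1 and NDUFB10 fell in 5 of 6 bears, NDUFB1 at −0.43 (adjusted p = 0.0134) and NDUFB10 at −0.53 (adjusted p = 0.0486). The call of NDUFB10 was the closest to the threshold and was lost with no block (0.0722, range 0.0167 to 0.139 over the alternatives). The other 5 did not pass. NDUFB11 was at −0.47 (adjusted p = 0.0917) and NDUFB8 at −0.32 (adjusted p = 0.102). NDUFB9, which like NDUFA6 is a partner of the acyl carrier protein, was at −0.13 (adjusted p = 0.496), NDUFB6 at −0.11 (adjusted p = 0.518) and NDUFB7 at −0.08 (adjusted p = 0.898). NDUFB7 varied most of all members, with 38.6, 75.0, 11.8, 45.2, 47.6 and 15.9 CPM in summer and 29.2, 39.8, 42.8, 9.05, 53.7 and 32.6 CPM in winter and an SE of 0.44.

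Of the 6 remaining accessory subunits, named C, S and V, 5 fell and 0 rose (0 higher by raw p below 0.05, 0 by DESeq2). The share lower was 83.3%, beside 21.2% lower and 19.6% higher over all genes tested. NDUFS6, which binds zinc and is added late to the NADH end, went from 16.4 to 44.5 CPM (median 30.5) in summer to 12.7 to 25.0 CPM (median 15.5) in winter, lower in 6 of 6 bears (log2 change −0.84, SE 0.18, adjusted p = 0.0037). NDUFC1 followed with 48.9 to 110.2 CPM (median 89.1) and 45.2 to 71.4 CPM (median 58.7) (log2 change −0.54, SE 0.12, adjusted p = 0.00418), again lower in 6 of 6. NDUFC2, its neighbour in the membrane arm, was at −0.60 (adjusted p = 0.0378) and lower in 5 of 6. NDUFS4, an accessory protein whose loss causes Leigh syndrome, was at −0.36 (adjusted p = 0.0289), and NDUFV3 at −0.39 (adjusted p = 0.0136), both lower in 6 of 6 bears. NDUFS5, a disulfide-linked subunit of the intermembrane side, was the only subunit with a positive change, from 111 to 188 CPM (median 169.6) to 158 to 243 CPM (median 173), higher in 4 of 6 bears and not called (log2 change 0.17, SE 0.12, adjusted p = 0.27).

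Depending on which single bear was left out, the calls of NDUFC2, NDUFS4, NDUFV3, NDUFA8, NDUFB10 and NDUFA4 were lost. Without bear 1305 the adjusted p was 0.0956 for NDUFC2, 0.0621 for NDUFS4, 0.0623 for NDUFA8, 0.0943 for NDUFB10 and 0.0925 for NDUFA4. Without bear 1316 these were 0.116, 0.0865, 0.0819, 0.139 and 0.136. NDUFA4 also lost its call without bear 1317 (0.0842) and NDUFA8 without bear 1317 (0.0546). Without bear 1509 the adjusted p was 0.0985 for NDUFC2, 0.0547 for NDUFA8 and 0.125 for NDUFB10. Without bear 1512 it was 0.084 for NDUFS4, 0.0532 for NDUFV3, 0.083 for NDUFA8, 0.0678 for NDUFB10 and 0.124 for NDUFA4. The other 19 of the 25 genes that fell kept an adjusted p below 0.05 whichever bear was left out.

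NDUFA4 and NDUFA4L2 carry complex I names but stand a little apart from the rest. NDUFA4 was later assigned to cytochrome c oxidase, complex IV, and NDUFA4L2 is a paralog known as a hypoxia-inducible gene. NDUFA4 stood at 1015, 1217, 952, 1152, 1043 and 1259 CPM in summer and 812, 702, 660.2, 1157, 971 and 894 CPM in winter. Winter was lower in 5 of 6 bears, with bear 1509 level between the seasons (log2 change −0.37, SE 0.13, adjusted p = 0.0464), and was not called with no block (0.0625, range 0.0159 to 0.136 over the alternatives). NDUFA4L2 had only 24 to 156 reads per library, and stood at 5.65, 4.53, 1.61, 6.85, 5.35 and 2.70 CPM in summer and 2.69, 2.31, 2.87, 1.32, 3.25 and 2.44 CPM in winter. The 5 lower bears and the 1 higher bear, 1317, left it short of a call (log2 change −0.74, SE 0.33, adjusted p = 0.0952); with no block it was called (0.0449, range 0.0215 to 0.216 over the alternatives). Without this pair, 21 of 36 subunits fell.

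Among the assembly factors, NDUFAF1, NDUFAF2 and NDUFAF5 fell and the other 5 were not called. These 3 are 37.5% of the 8, where 21.2% of all genes tested fell and 19.6% rose. NDUFAF1 is a scaffold of the membrane arm intermediate. It stood at 48.3, 56.0, 48.8, 46.4, 50.4 and 48.5 CPM in summer and 25.0, 25.5, 26.5, 31.7, 34.6 and 34.0 CPM in winter, with a wide gap between the seasons (log2 change −0.76, SE 0.12, adjusted p = 0.000567). NDUFAF5 hydroxylates an arginine of NDUFS7. It stood at 29.2, 38.4, 34.0, 35.7, 30.4 and 39.8 CPM in summer and 17.0, 15.5, 16.3, 21.6, 23.2 and 20.3 CPM in winter, also with no overlap (log2 change −0.87, SE 0.13, adjusted p = 0.000451). NDUFAF2, a paralog of NDUFA12 that holds its place during assembly, had 43 to 196 reads per library. It stood at 5.25, 9.35, 4.30, 5.49, 6.35 and 6.65 CPM in summer and 2.33, 3.02, 2.42, 5.63, 3.97 and 3.03 CPM in winter, lower in 5 of 6 bears and level in bear 1509 (log2 change −0.90, SE 0.21, adjusted p = 0.00626). The call of each of these 3 held in every alternative run.

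NDUFAF7, a methyltransferase, was at −0.23 (adjusted p = 0.219), lower in 4 of 6 bears. NDUFAF4 and NDUFAF3, partners at an early step, were at −0.23 (adjusted p = 0.126) and −0.23 (adjusted p = 0.46); in bear 1511 NDUFAF3 went from 7.94 to 15.5 CPM, above every other library. NDUFAF8, a stabiliser of NDUFAF5, was at −0.17 (adjusted p = 0.558). NDUFAF6 had the highest change of all members, from 7.51 to 10.4 CPM (median 8.08) to 8.23 to 11.5 CPM (median 9.51), higher in 4 of 6 bears and not called (log2 change 0.17, SE 0.13, adjusted p = 0.317). NDUFAF3 and NDUFAF8 had 83 to 257 and 62 to 209 reads per library, and their SEs of 0.23 and 0.22 were about as large as their changes.

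Assembly factors named outside the NDUF series were read beside these from a list of 14 genes, of which 12 were in the table. Of these, 5 fell and 0 rose (1 higher by raw p below 0.05, 0 by DESeq2), with a median of −0.24; over all genes tested 21.2% fell and 19.6% rose. ECSIT and ACAD9, partners of NDUFAF1 in the membrane arm assembly complex, had larger fitted changes than any subunit, a difference between genes that was not tested. ECSIT went from 36.5 to 48.1 CPM (median 43.4) in summer to 11.1 to 20.6 CPM (median 12.2) in winter (log2 change −1.66, SE 0.13, adjusted p = 1.53e-05). ACAD9 went from 29.5 to 34.1 CPM (median 32.7) to 11.0 to 19.5 CPM (median 12.2) (log2 change −1.27, SE 0.12, adjusted p = 4.34e-05). NUBPL, which delivers iron-sulfur clusters to complex I, had 28 to 206 reads per library and went from 6.67 to 8.56 CPM (median 7.76) to 1.14 to 3.70 CPM (median 2.14) (log2 change −1.86, SE 0.20, adjusted p = 9.24e-05). All 3 were lower in 6 of 6 bears with no overlap of the seasons. DMAC2 fell as well, at −0.59 (adjusted p = 0.0112), and TMEM242 at −0.41 (adjusted p = 0.0124). TMEM126B at −0.14 (adjusted p = 0.351) and TIMMDC1 at −0.02 (adjusted p = 0.918), also among the members of the NDUFAF1 complex, were not called. FOXRED1, DMAC1, TMEM70, TMEM186 and LYRM2 ranged from −0.29 for TMEM186 to 0.30 for LYRM2, none of them called.

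**Figure D3:**
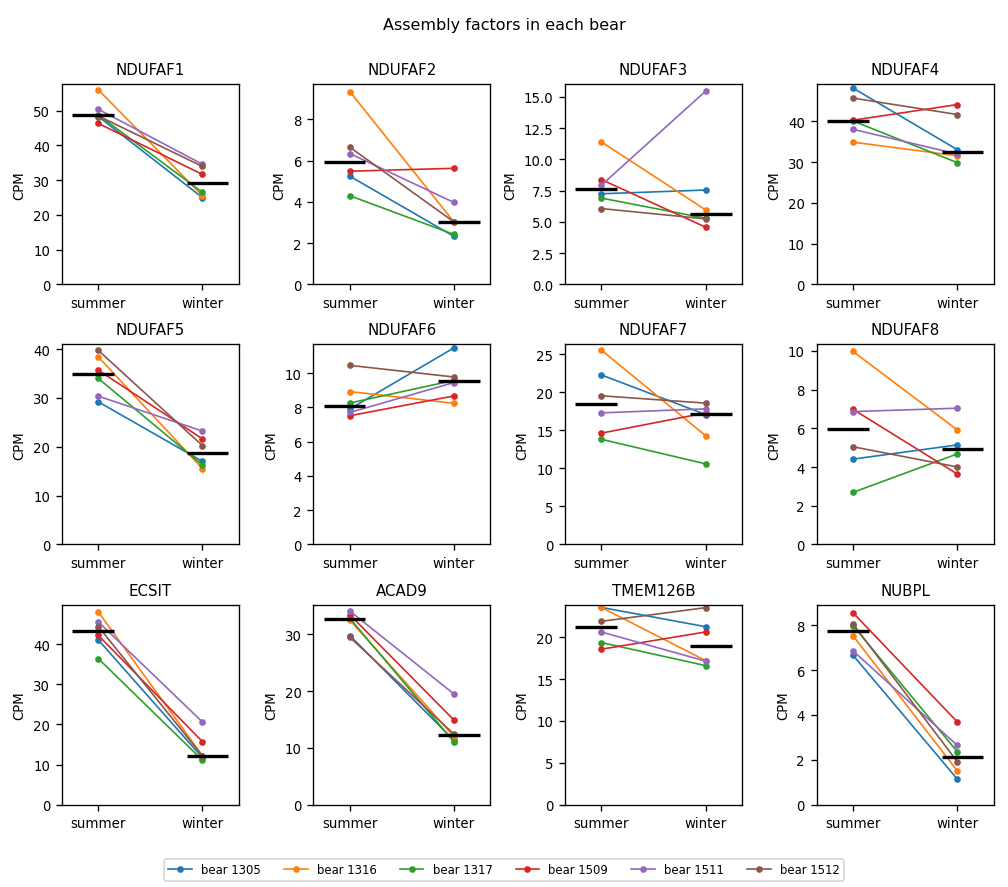
Level in CPM (y axis, from 0) of the 8 NDUFAF genes and of ECSIT, ACAD9, TMEM126B and NUBPL in summer and winter (x axis), a line for each of the 6 bears and a black bar at the median. The lines of NDUFAF1, NDUFAF5, ECSIT, ACAD9 and NUBPL all fall with no overlap between seasons, and those of TMEM126B and NDUFAF6 run in both directions.

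All 6 bears shared the direction but differed in size. Over the 38 subunits the median winter minus summer difference was −0.92 in bear 1316, with 38 of 38 lower, and −0.15 in bear 1511, with 25 of 38 lower. Between them came bear 1305 at −0.56 (37 lower), bear 1509 at −0.54 (36 lower), bear 1512 at −0.41 (28 lower) and bear 1317 at −0.18 (23 lower). Over all genes these medians lay within −0.03 to 0.01. The assembly factors had medians from −0.88 in bear 1316 to −0.11 in bear 1511. A lower level in 6 of 6 bears was found for 17 of 38 subunits and 2 of 8 assembly factors, where 19.0% of all genes tested had it, and all 19 of these genes were called. No overlap between winter and summer, with winter lower, was found for 7 subunits (NDUFS1, NDUFV2, NDUFA9, NDUFA10, NDUFAB1, NDUFB4 and NDUFB5) and for NDUFAF1 and NDUFAF5, against 8.21% of all genes tested.

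**Figure D4:**
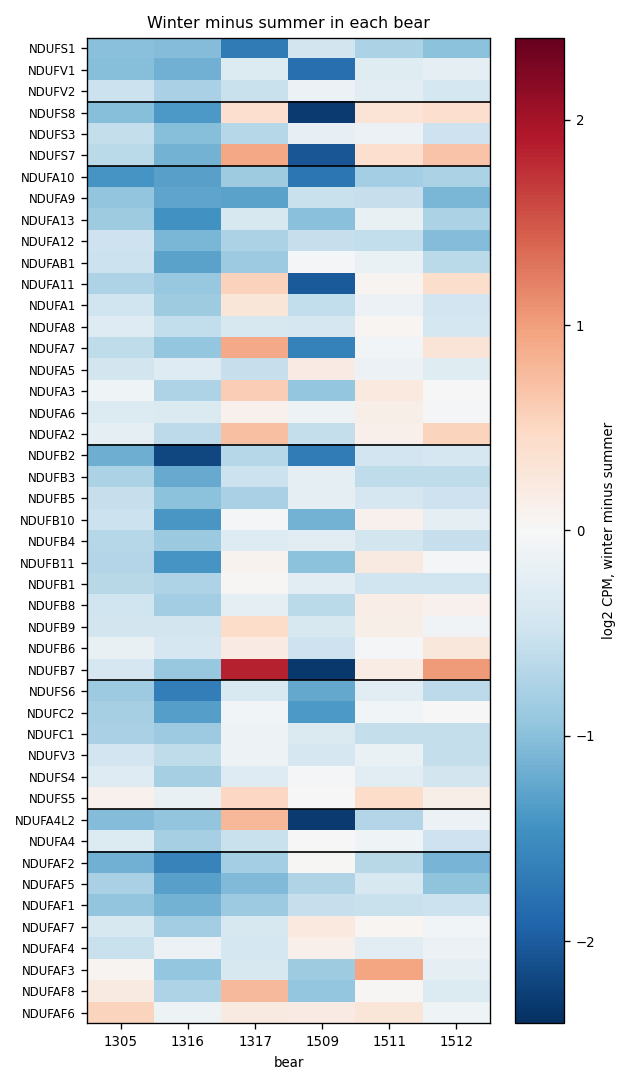
Winter minus summer difference in log2 CPM (colour, blue lower and red higher in winter) for the 46 members (rows, ordered by role and then by fitted change) in the 6 bears (columns). The column of bear 1316 is blue in all 38 subunit rows. The deepest red cells are NDUFB7, NDUFS7 and NDUFA7 in bear 1317, NDUFB7 in bear 1512 and NDUFAF3 in bear 1511.

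The subunits were not equally variable. The SD of the differences over the 6 bears ranged from 0.205 for NDUFV3 to 1.47 for NDUFB7 on the log2 scale, with a median of 0.398. The 10 subunits with the widest SD, 0.638 or more, were NDUFB7, NDUFS7, NDUFS8, NDUFA4L2, NDUFA11, NDUFA7, NDUFB2, NDUFB11, NDUFC2 and NDUFV1, a ranking made after the values were seen. In summer, bears 1317 and 1512 were the 2 lowest for 10 of these 10, and in winter bear 1509 was the lowest for 9 of 10. Over all 38 subunits, bear 1317 was the lowest in summer for 33 and bear 1509 the lowest in winter for 16. For many of the others, such as NDUFS3, NDUFA4 and NDUFA12, bear 1317 was the lowest in winter too. NDUFB7 stood at 11.8 and 15.9 CPM in the summer libraries of bears 1317 and 1512 and at 38.6 to 75.0 in the others, and at 9.05 in the winter library of bear 1509 and 29.2 to 53.7 in the others. NDUFS1 ran the other way, with its highest summer levels in the same bears, 1317 and 1512, and its highest winter level in bear 1509. Of these 10 subunits 3 were called, and of the 28 others 19 were, a difference that the choice by spread favours, since this spread enters the error of the test.

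These 3 libraries held 20191068 reads (bear 1317, the fewest in summer), 25328568 (bear 1512, the second most in summer) and 16742406 (bear 1509, the fewest in winter). Whether depth, RNA quality or another property of the libraries has a part in these levels was not tested. Without bear 1509, the log2 change of NDUFB7 was 0.34 in place of −0.08, that of NDUFS7 0.06 in place of −0.29, and that of NDUFS8 was −0.23 in place of −0.58. That of NDUFA11 was −0.11 in place of −0.42 and that of NDUFA7 −0.07 in place of −0.33, and none of the 5 was called.

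**Figure D5:**
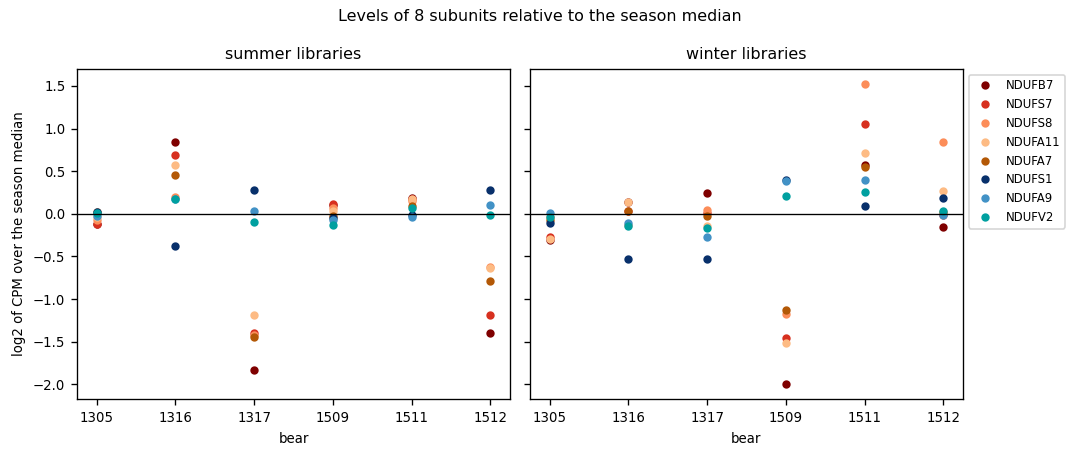
Level of 8 subunits in each library as the log2 of its CPM over the median of its season (y axis), for the 6 bears (x axis) in summer (left) and winter (right). NDUFB7, NDUFS7, NDUFS8, NDUFA11 and NDUFA7 (red to brown) lie under 0 for bears 1317 and 1512 in summer and bear 1509 in winter, where NDUFS1 (dark blue) lies above 0.

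Of the other respiratory complexes, II and V had genes in the table under the symbols looked for, and complexes III and IV were not analysed here. In complex II, which feeds electrons from succinate, 3 of 4 genes fell and 0 rose (0 higher by raw p below 0.05, 0 by DESeq2), with a median of −0.60, among them SDHC (log2 change −0.80, SE 0.14, adjusted p = 0.00115) and SDHB (log2 change −0.79, SE 0.12, adjusted p = 0.000481). In complex V, the ATP synthase, 10 of 16 fell and 0 rose (1 higher by raw p below 0.05, 1 by DESeq2), with a median of −0.55 and the largest change in ATP5PO (log2 change −0.85, SE 0.16, adjusted p = 0.00171). SDHD, ATP5F1D, ATP5F1E and ATP5MC3 were not called in every alternative, with adjusted p up to 0.0942, 0.0617, 0.0889 and 0.139. All of these values come from the same 12 libraries. These counts stand beside 22 of 38 for complex I and 21.2% lower over all genes tested, and no test of a difference between complexes was made.

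Among 12 regulators of nuclear mitochondrial genes, 3 rose and 3 fell, 25% each way beside 19.6% higher and 21.2% lower over all genes tested. NRF1, a transcription factor of respiratory chain genes, rose (log2 change 0.70, SE 0.12, adjusted p = 0.00135), as did GABPA at 0.32 (adjusted p = 0.0387) and PPRC1 at 0.44 (adjusted p = 0.0207). ESRRB (log2 change −1.70, SE 0.21, adjusted p = 0.000183) and ESRRA at −0.51 (adjusted p = 0.0322), both estrogen-related receptors, fell, as did TFB2M, a mitochondrial transcription factor, at −0.90 (adjusted p = 0.00039). GABPA, PPRC1 and ESRRA were not called in every alternative, with adjusted p up to 0.176, 0.0795 and 0.0698. PPARGC1A, the coactivator PGC-1α, was at −0.02 (adjusted p = 0.943).

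Some markers of other cells in the biopsy also moved with the season, where 21.2% of all genes tested fell and 19.6% rose. The share that fell was 83.3% of fibroblast, 80% of endothelial and 60% of macrophage markers. It lay near that of all genes for adipocyte and slow fibre (16.7% each), fast fibre (20%) and skeletal muscle markers (25%). Of 6 fibroblast markers 5 fell, from a summed 4176 to 11269 CPM in summer to 269 to 1623 in winter, bear 1509 standing at 1510.2. Of 5 endothelial markers 4 fell, from 577 to 916 CPM to 381 to 449, and of 5 macrophage markers 3 fell, from 52.9 to 104 CPM to 39.7 to 68.6. Of 6 adipocyte markers, 1, LEP, was at 0 in some libraries, and 1 fell, with a summed 299 to 1424 CPM in summer and 217 to 468 in winter. Of 8 skeletal muscle markers 2 rose, TTN and NEB, and 2 fell, ACTA1 and MB. Slow fibre markers, 6 of 8 tested, summed to 11493 to 23702 CPM in summer and 13164 to 19934 in winter, with 1 lower, ATP2A2. Fast fibre markers, 5 of 8 tested, summed to 32052 to 67359 and 38569 to 47016 CPM, with 1 lower, ATP2A1. The main myosin heavy chain genes of the fibre types, MYH7, MYH1 and MYH2, were not analysed here. The part of these cell types and fibre types in the lower complex I transcripts was not tested.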

How the data were processed

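The data are poly-A RNA libraries of the vastus lateralis of 6 bears in 2 seasons, made with a stranded kit and sequenced as single reads. The authors aligned the reads with TopHat2 2.1.1 to the ASM358476v1 assembly and counted reads per gene on the stranded setting of featureCounts 1.6.2; the deposited values are these raw counts, with no normalization or filter. How reads matching several places were treated is not given in the sources used here, so reads of near copies of a gene may be shared. The library of each sample was taken from its title and its group from its season label.

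Genes under 30 reads in all (0.0190% of reads) were left out, as in the study's methods. TMM scaling and edgeR 4.0.16 (glmQLFit, glmQLFTest, R 4.3.3) were used with bear and season as terms. The study's methods name DESeq2 with no design formula. SEs were derived from the fitted change and its F value. CPM is scaled by TMM, and log2 CPM has a prior count of 2. The bear number in the titles marks the animal sampled in both seasons; the 2 libraries of a bear deviated from their seasons' means with correlations of 0.0903 to 0.344 beside a median of −0.0634 and a highest value of 0.142 over 30 pairs of different bears, and no 2 libraries of a season agreed within counting noise (lowest chi-square per gene 30.3). Alternatives were the fit with no replicate block, DESeq2 1.42.0 with and without it, limma 3.58.1 voom, RLE normalization, library totals, no filter, filterByExpr, stricter limits, and each bear left out. The fits were checked on simulated data.

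The members and all lists were chosen with earlier results of these data known. Of the 47 NDUF genes that met the minimum, 1 is not reported here and stays out of every count of members; the other 46 are named. Values in every bear are given for the core subunits, NDUFA4, NDUFA4L2 and the 3 largest called changes in each direction among accessory subunits and among assembly factors, and NDUFB7 was added after its values were seen. No gene lengths were used, so levels of different genes are not compared. Sequencing lanes are not given in the labels, so a lane effect was not tested. The p-values of the main fit set the change between seasons within a bear against an error estimate. That estimate draws on how much the change varied over these 6 animals and is moderated over all genes tested.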

Additional observations from a re-analysis of the deposited data

Results flagged for a closer look

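The 6 libraries of a season were examined for each of the 46 genes, 92 sets in all, by the gap of the lowest or highest library to its nearest neighbour as a share of the range on the log2 CPM scale. In 9 sets it was above Dixon's 95% critical value for 6 samples. Chance alone flags about 1 in 20 sets, and the sets share libraries. The summer library of bear 1317 was the lowest of its season in 5 of them: NDUFC1 at 5.62 (nearest 6.40), NDUFA13 at 7.44 (nearest 8.10), NDUFA8 at 7.50 (nearest 7.90), NDUFS5 at 6.80 (nearest 7.32), NDUFA1 at 6.96 (nearest 7.87) log2 CPM. The winter library of bear 1509 was the lowest in 2, NDUFA7 at 4.90 (nearest 5.96) and NDUFB7 at 3.19 (nearest 4.87) log2 CPM. The winter library of bear 1511 was the highest in 2, NDUFB2 at 5.96 (nearest 5.21) and NDUFB11 at 6.61 (nearest 5.79) log2 CPM. Of these genes NDUFB2, NDUFC1, NDUFA13 and NDUFA8 were called lower in winter. The cause of the deviations was not tested.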

How the results depend on the processing

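The direction of the comparison for complex I was the same in each of the 15 alternatives: 0 subunits and 0 assembly factors were higher in every one, and 3 assembly factors were lower in every one. With no replicate block 19 subunits were lower in place of 22 (NDUFA4, NDUFS3, NDUFA8 and NDUFB10 lost, NDUFA4L2 gained), and the block changed no other member's call. The stricter limits of the study (adjusted p below 0.01, fold change above 1.3 or below 0.77) left 13 subunits lower, and 2115 genes higher and 2325 lower in place of 3392 and 3663 among all genes. Over the other alternatives 17 to 26 subunits were lower, the most with library totals, and their median log2 change ran from −0.54 to −0.36. Library totals also moved all genes downward, with 4083 lower and 2700 higher, and a median of −0.084 in place of −0.005. With each bear left out in turn, 17 to 23 subunits were lower, with medians of −0.53 to −0.36. Among all genes 3001 to 3677 were lower in those refits. DESeq2 with the block called 1 gene of complex V higher. Of the 25 called genes, 18 were called in every refit, and 16 also by the stricter limits. Of the 21 not called, 5 were called in some alternative (NDUFA1, NDUFA4L2, NDUFA5, NDUFB8 and NDUFB11). Reversed signs came only from uncalled genes. NDUFA2, at −0.01, became 0.00024 in DESeq2 with the block and 0.0042 with filterByExpr. With each bear left out in turn, NDUFA2 ran from −0.15 without bear 1317 to 0.12 without bears 1316 and 1509, NDUFB7 from −0.46 without bear 1317 to 0.34 without bear 1509, NDUFS7 from −0.54 without bear 1317 to 0.059 without bear 1509, and NDUFA3 from −0.31 without bear 1317 to 0.0038 without bear 1509. The cause of these moves was not tested. With 24 to 257 reads per library, NDUFA4L2, NDUFAF2, NDUFAF3 and NDUFAF8 were the members with the fewest reads. The part of depth in the SEs was not tested.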
